A study of Homo sapiens with 6 samples.

Results

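The genes described here are 38 RNA-binding regulators of splicing: the heterogeneous nuclear ribonucleoproteins (hnRNPs) and splicing regulators of the PTB, QKI, TIA, ELAVL, CELF, MBNL, RBFOX and FET families. They were chosen by name and matched through gene symbols to the Ensembl identifiers of the count tables. All 38 were found among 60483 gene ids, and all 38 passed the filter on low counts that left 14732 genes for testing. The data are 6 poly(A) RNA-seq libraries of T98G, a long-established cell line from a human glioblastoma. The oeSRPK1 group had 2 libraries of T98G cells transiently transfected with full-length SRPK1 cloned in pcDNA3.1, with the cDNA taken from the same line. The shSRPK1 group had 2 libraries of cells transiently transfected with an SRPK1 hairpin in pLKO.1, and the NT group had 2 libraries of untreated cells. No library of cells transfected with an empty or scrambled vector was used here, so the transfection, the vector and SRPK1 cannot be told apart in comparisons with NT, nor the vector and SRPK1 in oeSRPK1 against shSRPK1. The submitters call the libraries of a group biological replicates and do not say whether they were separate cultures, so each p-value reflects the spread seen between these libraries, and part of that spread may be technical.

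An hnRNP binds pre-mRNA as it is transcribed and, depending on where it sits, blocks or helps the use of a splice site. Many hnRNPs repress exons that serine/arginine-rich proteins (SR proteins) promote, and SRPK1 is the kinase that phosphorylates SR proteins and controls their entry into the nucleus. PTBP1, HNRNPA1 and HNRNPA2B1 are well known in glioma, where they are abundant and direct splicing of metabolic and growth genes. Members of these families also regulate each other, often through exons that send their own mRNA to decay. The counts are per gene and carry no information on exon use, on protein or on phosphorylation.

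Gene reads were 22691215 and 3891549 in oeSRPK1 1 and 2, 13650909 and 10792385 in shSRPK1 1 and 2, and 9891606 and 13634038 in NT 1 and 2. A level of 3 counts stood for 0.135 and 0.776 normalised CPM (reads scaled to a common library size) in the oeSRPK1 libraries and for 0.212 to 0.291 CPM in the other 4. SRPK1 itself had 190.3 and 168.0 CPM in oeSRPK1, 113.1 and 140.1 in shSRPK1, and 152.5 and 140.4 in NT. It passed the test only between oeSRPK1 and shSRPK1, with a log2 fold change of 0.50 ± 0.14 (edgeR adjusted p = 0.0377). With 1 library left out, its adjusted p was 0.0945 (NT 1), 0.0939 (NT 2), 0.308 (oeSRPK1 1) or 0.0997 (oeSRPK1 2). The shSRPK1 replicates differed most, with a chi-square of 40.7 per gene against 7.41 for oeSRPK1 and 4.11 for NT. Markers of a mesenchymal glioblastoma line (8 of 8 with reads in each library) summed to 8396 to 13589 CPM, though NES had 5 to 25 reads. The 7 astrocyte markers summed to 24.9 to 76.5 CPM, most of it GJA1 (19.2 to 70.2 CPM), while AQP4 and S100B had 0 reads in all libraries and GFAP had 1 read in all. Neuronal, immune and endothelial lists summed to at most 99.6, 1.51 and 0.755 CPM. Skeletal muscle markers, 12 genes led by ACTA1 and MYH7, summed to 242.7 and 2906 CPM in oeSRPK1, 1.43 and 13.8 in shSRPK1, and 0.680 and 1.20 in NT. Muscle genes do not mark glioblastoma cells, and their part in the results below was not tested.

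Together the 38 genes took a near-constant share of the transcriptome. They made up 0.953% and 0.999% of gene reads in oeSRPK1, 0.944% and 1.03% in shSRPK1, and 0.946% and 0.956% in NT. These shares overlapped between all 3 groups. Single members moved against this flat total, as the plot of each library relative to NT shows.

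**Figure D1:**
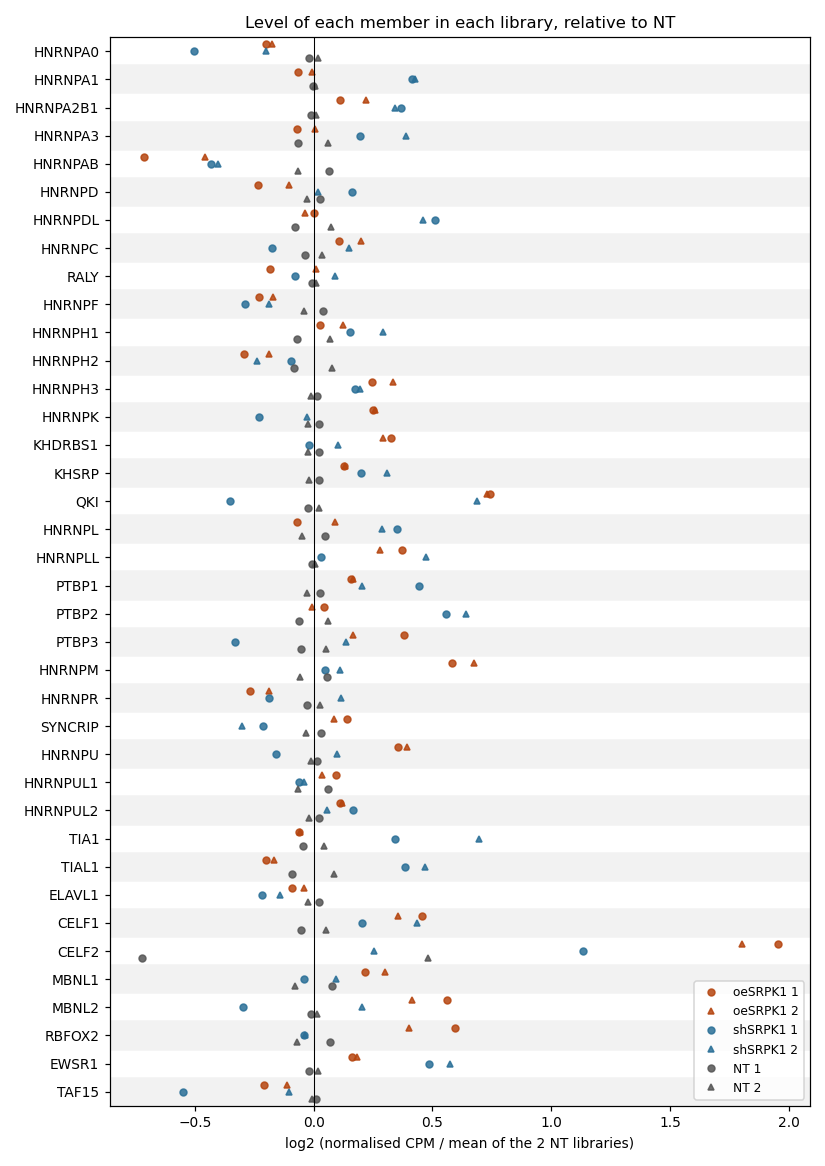
Each row is a gene and each point a library; the x axis is log2 of normalised CPM over the mean of the 2 NT libraries. QKI in shSRPK1 1 (132.9 CPM) lies far from shSRPK1 2 (273.4 CPM), while HNRNPM and RBFOX2 lie to the right in both oeSRPK1 libraries, and HNRNPDL, PTBP2 and EWSR1 in both shSRPK1 libraries.

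In oeSRPK1 against NT, 4 of the 38 genes passed an adjusted p of 0.05 (10.5%, beside 20.6% of all genes tested): HNRNPM, RBFOX2 and CELF2 were higher (beside 11.2% of all genes) and HNRNPAB lower (beside 9.45%). In shSRPK1 against NT, HNRNPDL, PTBP2 and EWSR1 were higher and 0 were lower in edgeR (3 of 38, 7.89%, beside 9.18% of all genes tested, of which 5.43% higher and 3.75% lower). DESeq2 and limma-voom also gave 0 lower, and at an unadjusted p under 0.05 edgeR had 11 higher and 3 lower (beside 15.4% and 13.3% of all genes). In oeSRPK1 against shSRPK1, HNRNPM, SYNCRIP and RBFOX2 were higher and HNRNPA1, HNRNPDL, PTBP2, TIA1 and TIAL1 lower (8 of 38, 21.1%, beside 22.8% of all genes tested, of which 11.5% higher and 11.3% lower). With upper-quartile scaling or DESeq2 the last split was 2 higher and 6 lower. The shares were near or below those of all genes in each comparison. In all, 11 genes passed in at least 1 comparison, 4 of them in 2 (HNRNPDL, PTBP2, HNRNPM and RBFOX2), and 27 in 0 by edgeR. In bulk samples, less RNA of a gene per cell and fewer cells expressing it cannot be told apart.

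The sizes were smaller than those of all genes tested, but only slightly so in shSRPK1 against NT. The 38 had a median absolute log2 fold change of 0.178 (oeSRPK1 against NT), 0.247 (shSRPK1 against NT) and 0.244 (oeSRPK1 against shSRPK1). All genes tested had 0.341, 0.288 and 0.366, in the same order. The 38 were not compared with genes of similar read depth, so the part of abundance in this contrast was not tested. With sign kept, the median log2 fold change of the 38 was 0.11, 0.086 and 0.050. For all genes tested it was -0.0007, 0.011 and -0.0020. A fitted change beyond 1.5-fold either way was seen in 4 (10.5%), 2 (5.26%) and 3 (7.89%) of the 38, beside 29.01%, 21.9% and 30.8% of all genes. For 28, 22 and 22 of the 38, in the same order, the 95% interval of the fold change stayed within 1.5-fold of no change. Genes whose 2 libraries lay above or below both of the other group numbered 20 and 11 in oeSRPK1 against NT, beside 35.9% and 34.6% of all genes. In shSRPK1 against NT they numbered 16 and 8, beside 28.8% and 28.7%, and in oeSRPK1 against shSRPK1 14 and 14, beside 31.8% and 30.5%. All 7 calls against NT were lost in edgeR without NT 1, NT 2, oeSRPK1 1 or oeSRPK1 2. Of the 8 between oeSRPK1 and shSRPK1, 2 were kept without NT 1, 1 without NT 2 and 0 without either oeSRPK1 library. The 4 calls in oeSRPK1 against NT were kept by limma-voom with a spread per group, which called 15 members, and by edgeR on only the 4 libraries compared, which called 18. Both of these fits also called more of all genes than the main fit. Without shSRPK1 1 or shSRPK1 2, the lone library left in that group gives no spread of its own. The spread then comes from the oeSRPK1 and NT replicates, which differed less. Counts of members passing in these fits are therefore not set beside those of the main fit. Of the 15 calls, 0 turned direction.

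**Figure D2:**
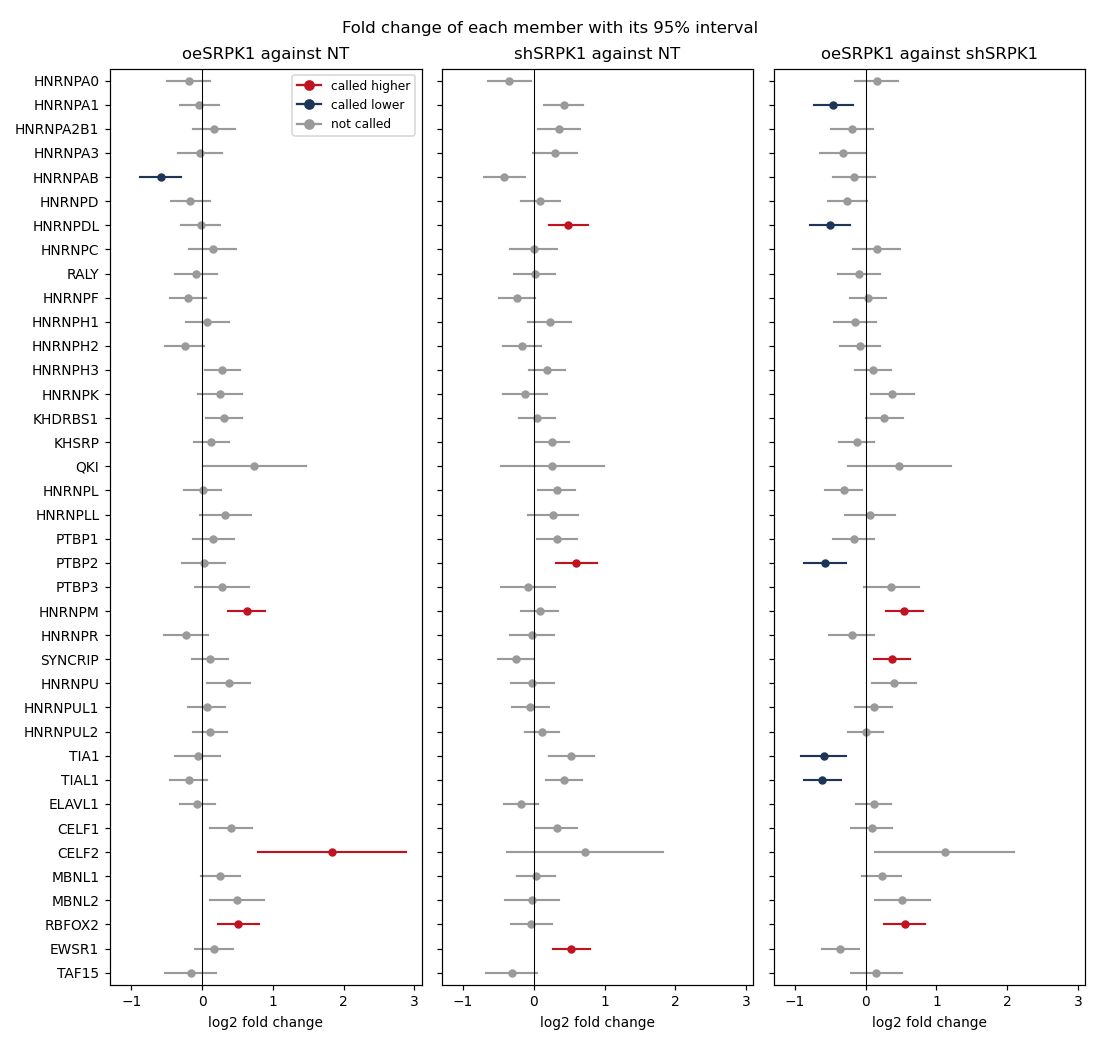
Each row is a gene; points are log2 fold changes from edgeR with their 95% intervals (n = 2 libraries per group), coloured by whether the adjusted p was under 0.05. Most intervals are narrow and cross 0; CELF2, with 161 reads in all, and QKI have the widest.

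Of the 4 genes that passed in 2 comparisons, RBFOX2 had no promoter in the RefSeq set used. The promoters of the other 3 are shown. HNRNPDL and PTBP2 were both higher in shSRPK1 than in oeSRPK1 and NT, and HNRNPM was higher in oeSRPK1 than in shSRPK1 and NT. The sequences are those of RefSeq on GRCh38.p14, 250 bases before to 50 after the start, each on the gene's strand. They lie at chr4:82430176-82430475 (minus strand), chr1:96722388-96722687 (plus) and chr19:8444725-8445024 (plus), and capitals mark matches to the motifs searched.
HNRNPDL: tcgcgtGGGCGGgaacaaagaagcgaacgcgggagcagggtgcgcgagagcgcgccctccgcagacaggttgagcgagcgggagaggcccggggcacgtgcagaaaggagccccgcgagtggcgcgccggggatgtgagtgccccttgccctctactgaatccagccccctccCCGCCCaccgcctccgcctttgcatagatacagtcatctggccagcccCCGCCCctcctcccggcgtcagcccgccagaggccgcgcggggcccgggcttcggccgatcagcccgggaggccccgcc
PTBP2: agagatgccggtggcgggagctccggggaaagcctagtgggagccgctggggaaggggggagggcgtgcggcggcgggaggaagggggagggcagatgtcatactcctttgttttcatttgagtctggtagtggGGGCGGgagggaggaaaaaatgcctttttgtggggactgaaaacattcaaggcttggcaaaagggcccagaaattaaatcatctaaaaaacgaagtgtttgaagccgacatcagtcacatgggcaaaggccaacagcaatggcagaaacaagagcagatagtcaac
HNRNPM: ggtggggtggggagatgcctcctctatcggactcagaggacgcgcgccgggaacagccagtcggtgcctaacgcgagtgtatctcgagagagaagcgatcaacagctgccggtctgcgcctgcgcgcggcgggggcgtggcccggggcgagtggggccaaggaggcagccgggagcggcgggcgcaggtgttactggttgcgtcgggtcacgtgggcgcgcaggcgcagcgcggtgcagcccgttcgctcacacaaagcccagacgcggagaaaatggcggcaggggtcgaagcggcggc
The capitals are all GC boxes (GGGCGG, or CCGCCC where it is on the opposite strand), of which HNRNPDL had 3, PTBP2 had 1 and HNRNPM had 0. HNRNPM held 0 of the 7 motifs searched on both strands. The HNRNPDL and HNRNPM windows are rich in G and C (73.3% and 70.7%). The PTBP2 window has 54% and a lower ratio of observed to expected CpG (0.577, against 0.870 and 1.09). In the GENCODE positions used here for genes, PTBP2 starts at 96721665, so its window lies wholly inside the gene. The PTBP2 values thus describe the RefSeq start alone. The GENCODE starts of HNRNPDL (82430408) and HNRNPM (8444767) lie within their windows.

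Of the 38 genes, 33 had a promoter in this table. Their median ratio of observed to expected CpG was 0.924, against 0.579 over all 35116 promoters of the same length, and their median GC content 67%, against 58.7%. The GC box was in 26 of the 33 (78.8%, beside 45.0% of all promoters), CCAAT in 15 (45.5%, beside 34.6%) and the ETS core CCGGAAG in 4 (12.1%, beside 10.3%). TATAAA was in 4 (12.1%, beside 11.5%), the ISRE core in 3 (9.09%, beside 3.57%), TGANTCA in 1 (3.03%, beside 7.71%) and TGACGTCA in 0 (beside 1.85%). No motif lies whole within another. GC-rich promoters were thus common among these genes. These matches describe letters in a window and say nothing of a bound factor.

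The hnRNP A/B and D group contains the classic core hnRNPs that coat nascent RNA. HNRNPA1, which binds UAGG-like elements and favours exon skipping, was lower in oeSRPK1 than in shSRPK1. HNRNPA1 (ENSG00000135486.16, GRCh38 chromosome 12, 54280193 to 54287088, plus strand) had 477.8 and 496.8 CPM in oeSRPK1, 666.2 and 671.0 in shSRPK1, and 498.1 and 501.6 in NT. Both shSRPK1 libraries lay above the other 4. Its log2 fold change was -0.46 ± 0.12 in oeSRPK1 against shSRPK1 (edgeR adjusted p = 0.0300). It was 0.42 in shSRPK1 against NT (0.0633) and -0.04 in oeSRPK1 against NT (0.852). The call did not hold in edgeR without NT 1, NT 2, oeSRPK1 1 or oeSRPK1 2. In shSRPK1 against NT the log2 fold change was 0.43 without shSRPK1 1 and 0.42 without shSRPK1 2. Annotated pseudogenes named after HNRNPA1 number 74; they held 406 reads, equal to 0.9996% of its 40616, and adding them changed no call.

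HNRNPDL, a relative of HNRNPD that binds AU-rich RNA, followed the same order and passed in both comparisons that involve shSRPK1. HNRNPDL (ENSG00000152795.16, chromosome 4, 82422564 to 82430408, minus strand) had 336.4 and 327.5 CPM in oeSRPK1, 478.4 and 462.8 in shSRPK1, and 318.3 and 353.9 in NT. The shSRPK1 libraries stood above all others, and oeSRPK1 and NT overlapped. The log2 fold change was 0.49 ± 0.12 in shSRPK1 against NT (edgeR adjusted p = 0.0455) and -0.50 ± 0.12 in oeSRPK1 against shSRPK1 (0.0234). Against NT the call did not hold in edgeR without NT 1 (0.419), NT 2 (0.202), oeSRPK1 1 (0.121) or oeSRPK1 2 (0.125), nor with upper-quartile scaling (0.0527), a spread per group in limma-voom (0.0561) or only the 4 libraries compared (0.121). Against shSRPK1 it did not hold without NT 1 (0.0687), NT 2 (0.0674), oeSRPK1 1 (0.164) or oeSRPK1 2 (0.140).

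HNRNPAB, a nucleocytoplasmic member first described as a promoter-binding protein, was the 1 gene that passed below NT. HNRNPAB (ENSG00000197451.9, chromosome 5, 178204507 to 178211163, plus strand) had 116.1 and 139.1 CPM in oeSRPK1, 141.3 and 144.2 in shSRPK1, and 199.4 and 182.1 in NT. All 4 transfected libraries lay below both NT libraries. Against NT, oeSRPK1 had a log2 fold change of -0.59 ± 0.13 (edgeR adjusted p = 0.0178), and shSRPK1 had -0.42 (0.0767). The call did not hold in edgeR without NT 1 (0.162), NT 2 (0.0944), oeSRPK1 1 (0.177) or oeSRPK1 2 (0.0552). HNRNPAB shares 196 exon bases (9.14% of its exons) with PHYKPL on the opposite strand, and the strand setting of the counting is not given in the sources used here.

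The other 4 of this group did not pass in any comparison. HNRNPA2B1, which packages RNA with HNRNPA1, had 1124 and 1210 CPM in oeSRPK1, 1341 and 1319 in shSRPK1, and 1032 and 1048 in NT. HNRNPA3 had 718.1 and 756.9, 863.2 and 984.8, and 720.4 and 786.1 CPM in oeSRPK1, shSRPK1 and NT. For both genes the shSRPK1 libraries were the highest, with log2 fold changes against NT of 0.36 (edgeR adjusted p = 0.118) and 0.29 (0.195). HNRNPA0 had 157.8 and 161.0 CPM in oeSRPK1, 128.2 and 158.1 in shSRPK1, and 179.3 and 184.0 in NT. HNRNPD, also called AUF1, had 185.9 and 204.0 CPM in oeSRPK1, 244.8 and 221.4 in shSRPK1, and 222.9 and 214.9 in NT. HNRNPA0 was thus lowest in shSRPK1 1, and HNRNPD lay below the other 4 libraries in both oeSRPK1 libraries.

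**Figure D3:**
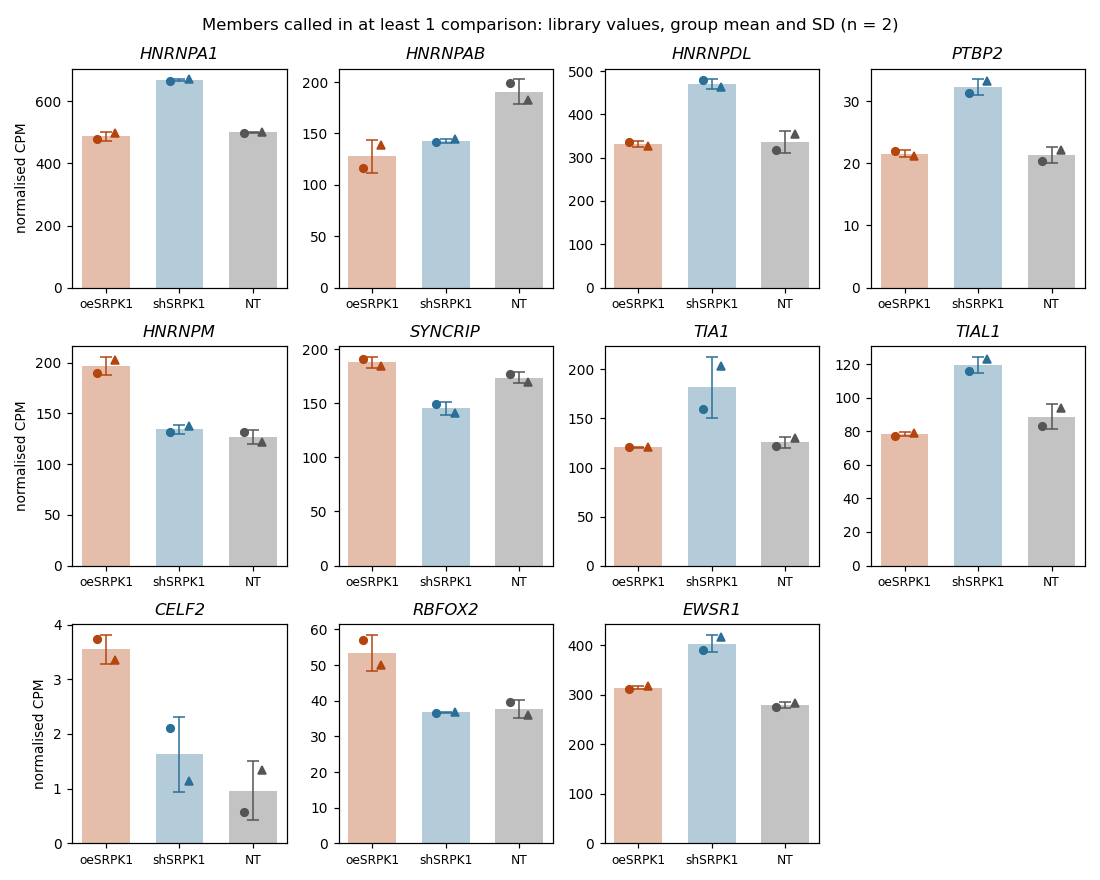
Normalised CPM of the 11 genes that passed in at least 1 comparison; points are libraries, bars the group mean and error bars the SD (n = 2), with oeSRPK1, shSRPK1 and NT from left to right. HNRNPM and RBFOX2 are highest in oeSRPK1, and HNRNPA1, HNRNPDL, PTBP2, TIA1, TIAL1 and EWSR1 in shSRPK1.

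HNRNPC, which binds uridine tracts as a tetramer and keeps cryptic exons silent, did not pass in any comparison. HNRNPC (ENSG00000092199.16, chromosome 14, 21209136 to 21269494, minus strand) had 493.1 and 525.5 CPM in oeSRPK1, 406.1 and 507.8 in shSRPK1, and 446.7 and 469.6 in NT. Its log2 fold change was 0.15 ± 0.14 in oeSRPK1 against NT (edgeR adjusted p = 0.486), -0.00 ± 0.14 in shSRPK1 against NT (0.989) and 0.16 ± 0.14 in oeSRPK1 against shSRPK1 (0.459). The shSRPK1 libraries lay on both sides of NT, and without shSRPK1 2 the last comparison had a log2 fold change of 0.28. RALY, its close relative, had 229.8 and 262.4 CPM in oeSRPK1, 247.2 and 277.8 in shSRPK1, and 259.3 and 262.2 in NT, with overlap between all 3 groups.

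The F/H proteins bind runs of G and often promote the exons they lie in or near. The 4 genes of this group did not pass in any comparison, and their log2 fold changes ran from -0.25 to 0.29. HNRNPH1 had 567.5 and 607.0 CPM in oeSRPK1, 618.6 and 682.9 in shSRPK1, and 530.8 and 583.4 in NT. Its X-linked copy HNRNPH2 had 62.98 and 67.73 CPM in oeSRPK1, 72.12 and 65.32 in shSRPK1, and 72.91 and 81.43 in NT. HNRNPH1 was thus lowest in an NT library and HNRNPH2 highest in both. HNRNPH3 had 200.3 and 212.7 CPM in oeSRPK1, 190.8 and 193.7 in shSRPK1, and 170.4 and 167.6 in NT (0.29 in oeSRPK1 against NT, edgeR adjusted p = 0.0989). HNRNPF had 141.8 and 147.9, 136.4 and 146.0, and 171.2 and 161.7 CPM in oeSRPK1, shSRPK1 and NT. HNRNPH2 shares 16.3% of its exon bases with the readthrough gene RPL36A-HNRNPH2, so its count is uncertain.

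HNRNPK and its KH-domain relatives bind C-rich or AU-rich RNA. HNRNPK had 924.4 and 930.6 CPM in oeSRPK1, 663.6 and 763.4 in shSRPK1, and 791.2 and 765.5 in NT. Its oeSRPK1 libraries lay above and its shSRPK1 libraries below all others, with a log2 fold change of 0.38 ± 0.13 between them (edgeR adjusted p = 0.0744). KHDRBS1, or Sam68, which links signalling kinases to alternative splicing, had 211.3 and 206.8 CPM in oeSRPK1, 166.7 and 181.2 in shSRPK1, and 171.5 and 166.2 in NT (0.31 in oeSRPK1 against NT, adjusted p = 0.0865). KHSRP, a splicing and mRNA-decay factor, had 136.2 and 136.7 CPM in oeSRPK1, 143.3 and 154.6 in shSRPK1, and 126.5 and 122.9 in NT. Both groups of transfected cells lay above NT for KHSRP, with adjusted p of 0.423 and 0.161.

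QKI, the quaking protein that binds ACUAA-type elements and is needed for myelination in mice, differed 2.06-fold between the shSRPK1 replicates. QKI (ENSG00000112531.15, chromosome 6, 163414000 to 163578596, plus strand) had 283.8 and 281.2 CPM in oeSRPK1, 132.9 and 273.4 in shSRPK1, and 166.8 and 172.2 in NT. Of the shSRPK1 libraries, 1 lay below NT and 1 was level with oeSRPK1, while oeSRPK1 lay above NT in both libraries. Its log2 fold change was 0.74 ± 0.30 in oeSRPK1 against NT (edgeR adjusted p = 0.137), 0.26 ± 0.30 in shSRPK1 against NT (0.617) and 0.48 ± 0.30 in oeSRPK1 against shSRPK1 (0.294). In oeSRPK1 against NT it passed with no filter (edgeR adjusted p = 0.000665), with only the 4 libraries compared (5.19e-06) and where limma-voom took each group's own spread (0.00223). Without shSRPK1 1 or shSRPK1 2, the log2 fold change in oeSRPK1 against NT was 0.70. In shSRPK1 against NT it was 0.69 without shSRPK1 1 and -0.35 without shSRPK1 2. In oeSRPK1 against shSRPK1 it was 0.01 without shSRPK1 1 and 1.05 without shSRPK1 2. The direction in shSRPK1 therefore rests on which library is used.

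PTBP1 and PTBP2 bind pyrimidine tracts; PTBP1 serves most dividing cells and lowers PTBP2, its neuronal relative, by making it skip an exon that is needed for a stable mRNA. PTBP2 rose in shSRPK1. PTBP2 (ENSG00000117569.17, chromosome 1, 96721665 to 96823738, plus strand) had 21.95 and 21.2 CPM in oeSRPK1, 31.3 and 33.2 in shSRPK1, and 20.4 and 22.2 in NT. The shSRPK1 libraries stood above the other 4, which overlapped. The log2 fold change was 0.60 ± 0.13 in shSRPK1 against NT (edgeR adjusted p = 0.0282) and -0.57 ± 0.13 in oeSRPK1 against shSRPK1 (0.0188). Against NT the call did not hold in edgeR without NT 1 (0.317), NT 2 (0.177), oeSRPK1 1 (0.0855) or oeSRPK1 2 (0.0860). Against shSRPK1 it did not hold without NT 1 (0.0568), NT 2 (0.0566), oeSRPK1 1 (0.147) or oeSRPK1 2 (0.0999). The summed neuronal markers were 35.3 and 34.4 CPM in oeSRPK1, 49.5 and 99.6 in shSRPK1, and 65.7 and 61.5 in NT. Most of that sum was MAP2, with 25.1 and 26.6 CPM in oeSRPK1, 25.9 and 75.6 in shSRPK1, and 47.7 and 42.8 in NT. SNAP25 had 4.90 and 4.91 CPM in oeSRPK1, 16.4 and 17.2 in shSRPK1, and 14.3 and 14.9 in NT (edgeR adjusted p = 0.00149 in oeSRPK1 against NT and 0.00153 against shSRPK1). TUBB3 had 2.43 and 1.55 CPM in oeSRPK1, 3.70 and 2.58 in shSRPK1, and 2.04 and 1.77 in NT. SYP had 2.79 and 0.776 CPM in oeSRPK1, 3.47 and 4.11 in shSRPK1, and 1.65 and 1.98 in NT. RBFOX3, ELAVL3, ELAVL4, STMN2, DCX and NEFL had 0 to 2 reads. The sum was lower in oeSRPK1 than in NT, where PTBP2 overlapped. In shSRPK1 the sum and MAP2 lay on both sides of NT. SNAP25, TUBB3 and SYP lay above NT in both shSRPK1 libraries, as PTBP2 did, but did not pass in that comparison. The part of these genes in the PTBP2 level was not tested.

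PTBP1 was not lower than NT in either shSRPK1 library. PTBP1 (ENSG00000011304.15, chromosome 19, 797075 to 812327, plus strand) had 230.4 and 231.6 CPM in oeSRPK1, 281.0 and 238.2 in shSRPK1, and 210.8 and 202.8 in NT. The shSRPK1 libraries were above the oeSRPK1 libraries, and these above NT. Its log2 fold change was 0.16 ± 0.12 in oeSRPK1 against NT (edgeR adjusted p = 0.397), 0.33 ± 0.12 in shSRPK1 against NT (0.129) and -0.17 ± 0.12 in oeSRPK1 against shSRPK1 (0.354). Without shSRPK1 2, the 2 comparisons with shSRPK1 had log2 fold changes of 0.45 and -0.33. PTBP3 had 94.7 and 81.7 CPM in oeSRPK1, 57.8 and 80.0 in shSRPK1, and 70.1 and 75.4 in NT. HNRNPL, which binds CA repeats, had 103.7 and 116.1 CPM in oeSRPK1, 139.0 and 133.1 in shSRPK1, and 112.6 and 105.2 in NT. Its relative HNRNPLL, a regulator of splicing in activated T cells, had 72.7 and 68.2 CPM in oeSRPK1, 57.4 and 77.9 in shSRPK1, and 55.9 and 56.5 in NT. HNRNPL was highest in shSRPK1 in both libraries, and PTBP3 in oeSRPK1, but neither these genes nor HNRNPLL passed the test.

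HNRNPM, which binds GU-rich RNA and is known for splicing during the epithelial to mesenchymal transition, rose in oeSRPK1 with the smallest adjusted p of the 38 against NT. HNRNPM (ENSG00000099783.10, chromosome 19, 8444767 to 8489114, plus strand) had 190.0 and 202.9 CPM in oeSRPK1, 131.3 and 137.2 in shSRPK1, and 131.8 and 122.0 in NT. Both oeSRPK1 libraries stood above the other 4, and shSRPK1 and NT overlapped. The log2 fold change was 0.63 ± 0.11 in oeSRPK1 against NT (edgeR adjusted p = 0.00858) and 0.55 ± 0.11 in oeSRPK1 against shSRPK1 (0.0140). Against NT the call did not hold in edgeR without NT 1 (0.0927), NT 2 (0.117), oeSRPK1 1 (0.101) or oeSRPK1 2 (0.0737). Against shSRPK1 it did not hold without NT 2 (0.0501), oeSRPK1 1 (0.128) or oeSRPK1 2 (0.0930), and without NT 1 it lay at the threshold.

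SYNCRIP, or hnRNP Q, a cytoplasmic and nuclear RNA-binding protein that also acts in translation, was higher in oeSRPK1 than in shSRPK1. SYNCRIP (ENSG00000135316.16, chromosome 6, 85607785 to 85643792, minus strand) had 191.5 and 184.3 CPM in oeSRPK1, 149.8 and 140.8 in shSRPK1, and 177.6 and 170.0 in NT. The groups did not overlap, with NT between the others. Its log2 fold change was 0.37 ± 0.11 in oeSRPK1 against shSRPK1 (edgeR adjusted p = 0.0452), 0.11 in oeSRPK1 against NT (0.496) and -0.26 in shSRPK1 against NT (0.166). The call did not hold in edgeR without NT 1 (0.124), NT 2 (0.120), oeSRPK1 1 (0.306) or oeSRPK1 2 (0.147). It was also lost with DESeq2 (0.0598), with RLE (0.0503) or upper-quartile scaling (0.0575), with no filter (0.175), where limma-voom took each group's own spread (0.0700) and with only the 4 libraries compared (0.112). It held in limma-voom (0.0379) and with a stricter filter (0.0446).

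The other 4 of this group did not pass in any comparison. HNRNPU, the scaffold attachment factor that ties RNA to chromatin, had 551.1 and 566.1 CPM in oeSRPK1, 386.4 and 460.5 in shSRPK1, and 434.3 and 427.2 in NT. Its oeSRPK1 libraries stood above the other 4, with log2 fold changes of 0.37 against NT (edgeR adjusted p = 0.0809) and 0.40 against shSRPK1 (0.0633). HNRNPU shares 15.6% of its exon bases with COX20 on the opposite strand. HNRNPR, the close relative of SYNCRIP, had 233.1 and 246.1 CPM in oeSRPK1, 245.9 and 303.7 in shSRPK1, and 274.9 and 285.8 in NT. HNRNPUL1 ran from 201.9 to 225.3 CPM over the 6 libraries and HNRNPUL2 from 83.5 to 95.1 CPM, the narrowest ranges of the group. HNRNPUL2 shares 44.15% of its exon bases with the readthrough gene HNRNPUL2-BSCL2, so its count is uncertain.

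TIA1 and TIAL1 bind U-rich RNA beside weak donor splice sites, where they help U1 snRNP, and gather in stress granules. Both were lower in oeSRPK1 than in shSRPK1. TIA1 (ENSG00000116001.14, chromosome 2, 70209444 to 70248660, minus strand) had 120.4 and 120.7 CPM in oeSRPK1, 159.6 and 203.7 in shSRPK1, and 121.9 and 129.7 in NT. TIAL1 (ENSG00000151923.16, chromosome 10, 119571802 to 119597029, minus strand) had 77.3 and 79.1 CPM in oeSRPK1, 116.0 and 123.0 in shSRPK1, and 83.4 and 94.2 in NT. For both genes the shSRPK1 libraries stood highest and the oeSRPK1 libraries lowest. TIAL1 had the smallest adjusted p of the 38 in this comparison, with a log2 fold change of -0.61 ± 0.11 (edgeR adjusted p = 0.00998), and TIA1 had -0.59 ± 0.14 (0.0217). Against NT, shSRPK1 had 0.53 ± 0.14 for TIA1 (0.0518) and 0.43 ± 0.11 for TIAL1 (0.0528). The TIAL1 call did not hold in edgeR without oeSRPK1 1 (0.121) or oeSRPK1 2 (0.0720) and kept without NT 1 (0.0337) or NT 2 (0.0342). The TIA1 call was lost without NT 1 (0.0612), NT 2 (0.0615), oeSRPK1 1 (0.168) or oeSRPK1 2 (0.119).

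ELAVL1, or HuR, which stabilises AU-rich mRNAs, kept within 67.7 to 80.0 CPM over the 6 libraries. CELF1, which binds GU-rich RNA and acts against MBNL proteins on shared exons, had 198.5 and 185.1 CPM in oeSRPK1, 166.4 and 195.9 in shSRPK1, and 139.3 and 150.2 in NT (0.41 ± 0.13 in oeSRPK1 against NT, edgeR adjusted p = 0.0561). NT was the lowest group for CELF1 and the transfected groups overlapped. CELF2 (ENSG00000048740.16, chromosome 10, 10798397 to 11336675, plus strand), its relative of brain, heart and muscle, was the rarest of the 38, with 83 and 13 reads in oeSRPK1, 28 and 12 in shSRPK1, and 6 and 19 in NT. That is 3.73 and 3.36 CPM in oeSRPK1, 2.11 and 1.15 in shSRPK1, and 0.583 and 1.34 in NT. Both oeSRPK1 libraries stood above the rest, but the NT libraries differed 2.30-fold and the shSRPK1 libraries 1.84-fold. CELF2 rose in oeSRPK1 against NT 3.58-fold (1.84 ± 0.45 on the log2 scale, edgeR adjusted p = 0.0262), with a 95% interval of 1.74-fold to 7.39-fold. The call did not hold in edgeR without NT 1 (0.188), NT 2 (0.0751), oeSRPK1 1 (0.251) or oeSRPK1 2 (0.0841), and without NT 2 the log2 fold change was 2.60. Muscle markers summed to 242.7 and 2906 CPM in the same oeSRPK1 libraries, and their part in the CELF2 level was not tested.

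RBFOX2 binds UGCAUG and sets exons in brain, muscle and mesenchymal cells, and it rose in oeSRPK1. RBFOX2 (ENSG00000100320.21, chromosome 22, 35738736 to 36028425, minus strand) had 57.0 and 49.9 CPM in oeSRPK1, 36.7 and 36.8 in shSRPK1, and 39.5 and 35.9 in NT. Both oeSRPK1 libraries stood above the other 4. The log2 fold change was 0.51 ± 0.13 in oeSRPK1 against NT (edgeR adjusted p = 0.0258) and 0.55 ± 0.13 in oeSRPK1 against shSRPK1 (0.0198). Against NT the call did not hold in edgeR without NT 1 (0.147), NT 2 (0.220), oeSRPK1 1 (0.271) or oeSRPK1 2 (0.0727). Against shSRPK1 it did not hold without NT 1 (0.0611), NT 2 (0.0604), oeSRPK1 1 (0.227) or oeSRPK1 2 (0.0626). RBFOX2 is also a muscle gene. Its log2 fold change against NT was 0.60 without oeSRPK1 2, the library with most muscle reads, and 0.37 without oeSRPK1 1. Both oeSRPK1 libraries held muscle reads, and the part of these reads in the RBFOX2 level was not tested.

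MBNL1 and MBNL2, the muscleblind proteins that drive the splicing of differentiated muscle and brain, did not pass in edgeR on all 6 libraries. MBNL1 (ENSG00000152601.16, chromosome 3, 152243828 to 152465780, plus strand) had 174.1 and 184.8 CPM in oeSRPK1, 145.75 and 160.3 in shSRPK1, and 158.1 and 141.9 in NT. Its oeSRPK1 libraries lay above the other 4, which overlapped. Fitted log2 fold changes were 0.26 ± 0.12 in oeSRPK1 against NT (edgeR adjusted p = 0.162), 0.03 ± 0.12 in shSRPK1 against NT (0.896) and 0.23 ± 0.12 in oeSRPK1 against shSRPK1 (0.196). In oeSRPK1 against NT it did pass in edgeR on only the 4 libraries compared (adjusted p = 0.0467) and where limma-voom took each group's own spread (0.0362). MBNL2 had 166.4 and 150.2 CPM in oeSRPK1, 91.7 and 129.7 in shSRPK1, and 111.7 and 113.8 in NT. It too was highest in oeSRPK1, with 0.49 against NT (0.0718) and 0.52 against shSRPK1 (0.0568), and was lower in oeSRPK1 2 than in oeSRPK1 1. MBNL1 shares 11.4% of its exon bases with its antisense gene MBNL1-AS1.

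EWSR1, a FET protein best known from its gene fusions in Ewing sarcoma, links transcription to splicing and rose in shSRPK1. EWSR1 (ENSG00000182944.16, chromosome 22, 29268009 to 29300525, plus strand) had 312.1 and 317.2 CPM in oeSRPK1, 390.7 and 415.7 in shSRPK1, and 275.8 and 283.0 in NT. The groups did not overlap, with NT lowest. Fitted log2 fold changes were 0.53 ± 0.11 in shSRPK1 against NT (edgeR adjusted p = 0.0299), 0.17 in oeSRPK1 against NT (0.323) and -0.36 in oeSRPK1 against shSRPK1 (0.0572). The call did not hold in edgeR without NT 1 (0.325), NT 2 (0.209), oeSRPK1 1 (0.0999) or oeSRPK1 2 (0.102). TAF15, its relative, had 173.2 and 185.1 CPM in oeSRPK1, 136.8 and 186.2 in shSRPK1, and 201.5 and 199.2 in NT, highest in NT, and did not pass.

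Ratios between relatives show how the balance within a family moved; they are log2 ratios of CPM per kilobase of exon within a library, given with no test. PTBP2 over PTBP1 was -4.30 and -4.36 in oeSRPK1, -4.07 and -3.75 in shSRPK1, and -4.28 and -4.10 in NT. It was highest in both shSRPK1 libraries, though the 2 differed by more than shSRPK1 1 did from NT 2. HNRNPH2 over HNRNPH1 was -1.08 and -1.07 in oeSRPK1, -1.01 and -1.29 in shSRPK1, and -0.77 and -0.75 in NT, so both transfected groups lay below NT. HNRNPDL over HNRNPD was 1.21 and 1.03 in oeSRPK1, 1.32 and 1.41 in shSRPK1, and 0.86 and 1.07 in NT, highest in shSRPK1. CELF2 over CELF1 was -5.80 and -5.85 in oeSRPK1, -6.37 and -7.49 in shSRPK1, and -7.97 and -6.88 in NT, highest in oeSRPK1. HNRNPLL over HNRNPL was -0.31 and -0.56 in oeSRPK1, -1.07 and -0.57 in shSRPK1, and -0.81 and -0.69 in NT. MBNL2 over MBNL1 was 0.96 and 0.73 in oeSRPK1, 0.36 and 0.72 in shSRPK1, and 0.52 and 0.71 in NT. Both ratios were highest in oeSRPK1, by a small margin over shSRPK1 2. TIAL1 over TIA1 was -0.79 and -0.76 in oeSRPK1, -0.62 and -0.88 in shSRPK1, and -0.70 and -0.62 in NT, so oeSRPK1 lay below NT. PTBP3 over PTBP1 overlapped between oeSRPK1 and NT, and all 4 of these ratios overlapped between shSRPK1 and NT.

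**Figure D4:**
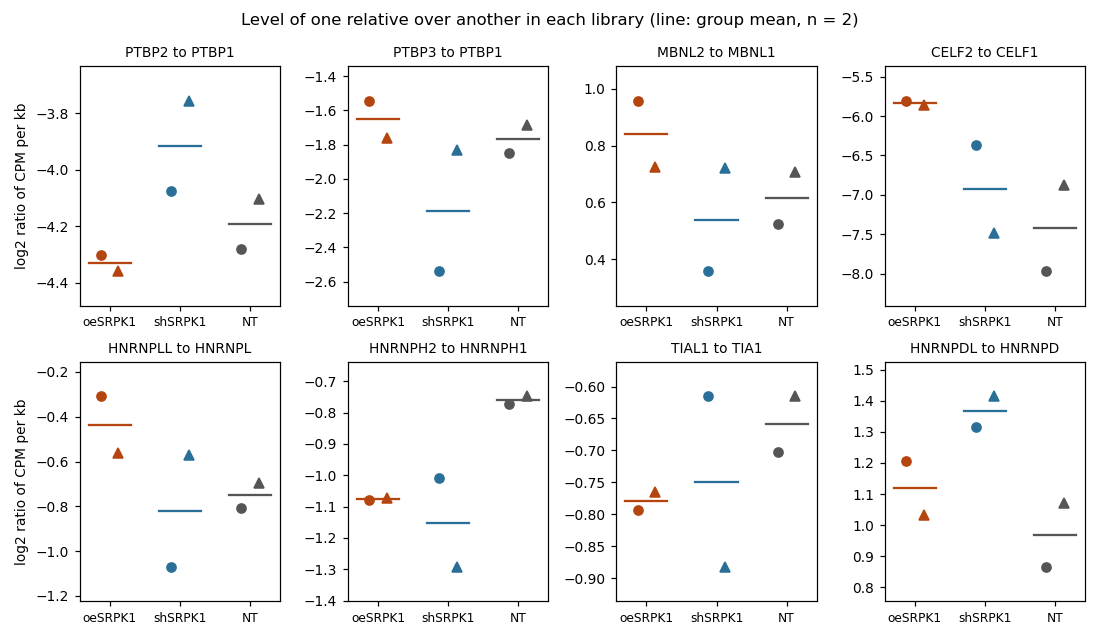
Each panel is the log2 ratio of 2 relatives (normalised CPM per kilobase of exon) in each library, with a line at the group mean (n = 2) and oeSRPK1, shSRPK1 and NT from left to right; each panel has its own scale. HNRNPH2 over HNRNPH1 lies lower in all 4 transfected libraries (-1.29 to -1.01) than in NT (-0.77 and -0.75).

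Per kilobase of merged exons of all annotated transcripts, the levels ran over 3 orders of magnitude. HNRNPK was highest in NT with 152 CPM per kilobase, then HNRNPA3 with 125, HNRNPA2B1 with 112, HNRNPA1 with 98.2 and HNRNPAB with 89.0. HNRNPK also led in oeSRPK1 with 181, but in shSRPK1 HNRNPA3 led with 153. At the low end, RBFOX2 had 3.77, PTBP2 1.64 and CELF2 0.088 CPM per kilobase in NT. The largest fold change, that of CELF2, belonged to the least abundant gene. Merged exons overstate the length of genes with many rare isoforms, so neighbours in this order are not separated.

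**Figure D5:**
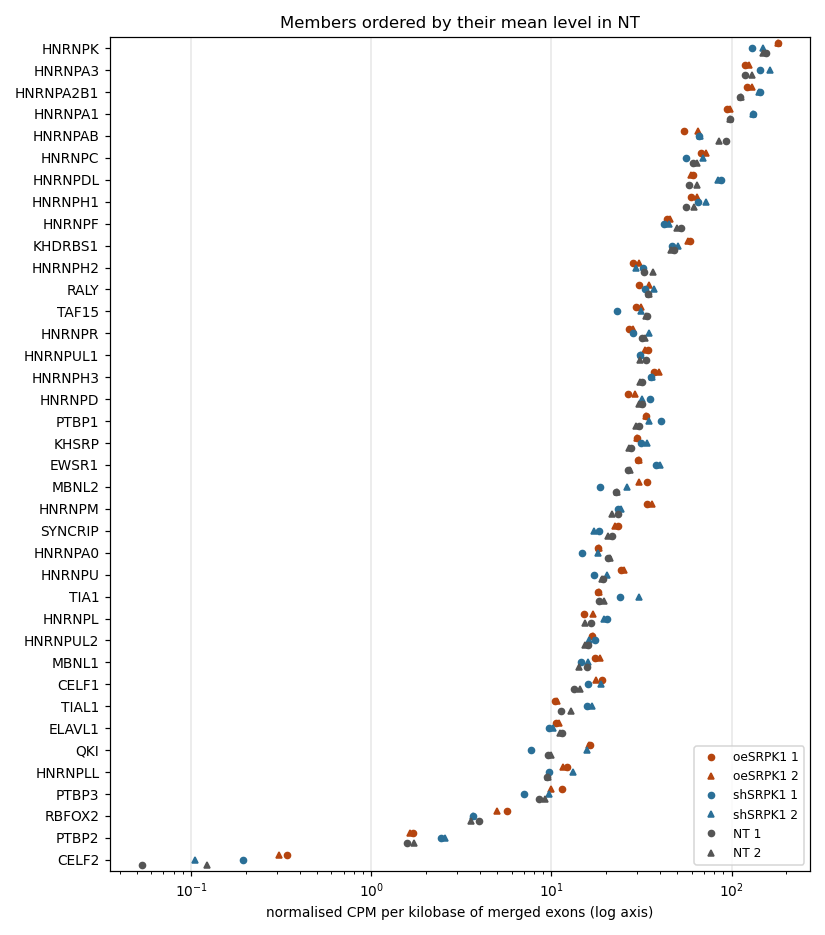
Normalised CPM per kilobase of merged exons on a log axis, 1 row per gene, ordered by the mean in NT; points are the 6 libraries. Levels fall from HNRNPK (152 in NT) to CELF2 (0.088 in NT), and for most genes the libraries lie close beside the differences between genes.

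A second list held 78 other splicing regulators and related RNA-binding proteins, such as further RBM, MBNL and FUBP genes, of which 62 were tested. In oeSRPK1 against NT, 4 were higher and 4 lower (12.9%, beside 20.6% of all genes; median log2 fold change -0.080). In shSRPK1 against NT, 3 were higher and 2 lower (8.06%, beside 9.18%; median 0.097). In oeSRPK1 against shSRPK1, 4 were higher and 15 lower (30.6%, beside 22.8%; median -0.14). Over all genes 11.5% were higher and 11.3% lower in that comparison. The split of the list became 3 higher and 4 lower without NT 1, without NT 2 or with only the 4 libraries compared.

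Of that list, RAVER2, a partner of PTB proteins, had 14.9 and 14.2 CPM in oeSRPK1, 20.7 and 25.5 in shSRPK1, and 33.9 and 28.3 in NT (-1.08 ± 0.17 in oeSRPK1 against NT, edgeR adjusted p = 0.0054). RBM3, the cold-inducible RNA-binding protein, had 190.4 and 182.0 CPM in oeSRPK1, 82.8 and 113.7 in shSRPK1, and 107.9 and 114.1 in NT (0.75 ± 0.16, 0.0152, against NT and 0.92 ± 0.16, 0.0074, against shSRPK1). RBM3 stood apart in both oeSRPK1 libraries. FUBP1, which binds single-stranded DNA and RNA, had 202.6 and 215.3 CPM in oeSRPK1, 367.3 and 427.9 in shSRPK1, and 222.8 and 268.0 in NT (0.70 ± 0.14 in shSRPK1 against NT, adjusted p = 0.0263). RBM6 had 59.4 and 64.9, 122.2 and 104.3, and 67.1 and 79.0 CPM in oeSRPK1, shSRPK1 and NT (0.63 ± 0.13 in shSRPK1 against NT, 0.0285). Both genes stood highest in shSRPK1. In oeSRPK1 against shSRPK1 the log2 fold change was -0.93 for FUBP1 (edgeR adjusted p = 0.0055) and -0.87 for RBM6 (0.0058). MBNL3 and RBMX were lower in shSRPK1 than in NT (-0.81, edgeR adjusted p = 0.0425, and -0.45, 0.0473). Both oeSRPK1 libraries also lay below NT for these genes (-0.64, 0.0587, and -0.33, 0.0765). Neither gene passed in oeSRPK1 against shSRPK1 (0.18, 0.563, and 0.12, 0.466). SLTM was higher in oeSRPK1 than in NT (0.47, 0.0216). SUGP2 was lower in oeSRPK1 than in shSRPK1 (-0.65, 0.0075) and also lower than in NT (-0.46, 0.0249). The SUGP2 call against NT did not hold in edgeR without NT 1, NT 2, oeSRPK1 1 or oeSRPK1 2. 

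The calls on these genes were also lost in some fits with 1 library left out. In shSRPK1 against NT they were lost even without an oeSRPK1 library, which is not part of that comparison. With NT 1, NT 2, oeSRPK1 1 or oeSRPK1 2 left out, in that order, the adjusted p in oeSRPK1 against NT was 0.0733, 0.0364, 0.0910 and 0.0479 for RAVER2, 0.148, 0.113, 0.164 and 0.0793 for RBM3, and 0.184, 0.169, 0.155 and 0.129 for SLTM. In shSRPK1 against NT it was 0.308, 0.130, 0.0871 and 0.0874 for FUBP1, 0.319, 0.139, 0.0871 and 0.0884 for RBM6, 0.315, 0.217, 0.105 and 0.103 for MBNL3, and 0.397, 0.206, 0.120 and 0.119 for RBMX. RAVER2 thus held without NT 2 or oeSRPK1 2, and none of these 4 calls in shSRPK1 against NT held. In oeSRPK1 against shSRPK1 it was 0.0185, 0.0199, 0.0986 and 0.0502 for FUBP1, 0.0193, 0.0204, 0.102 and 0.0469 for RBM6, 0.0279, 0.0291, 0.114 and 0.0513 for RBM3, and 0.0313, 0.0313, 0.115 and 0.0507 for SUGP2, so all 4 held without either NT library. Of the 19 calls of the list in that comparison, 7 were kept without NT 1, 7 without NT 2, 0 without oeSRPK1 1, 1 without oeSRPK1 2 and 19 without either shSRPK1 library.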

How the data were processed

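Each library had 1 table of raw read counts by gene, as the authors deposited it. Per the submitters' processing notes, FastQC, Trimmomatic and STAR 2.5.3 were used with hg38; the counting tool, annotation release and strand setting are not given in the sources used here. Entries that name no gene were left out; unannotated reads were 8.13% to 11.1% of the total, reads aligned to several places 11.95% to 13.1% and ambiguous reads 3.04% to 3.37%; reads that fit several near-identical copies fall among these. Of 60483 gene ids, 56321 were named by a table of gene names, 432 by GENCODE 29 alone and 3730 not at all.

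The model was fitted with edgeR 4.0.16 (R 4.3.3) to all 6 libraries: filterByExpr (minimum count 10, total 15; 14732 genes with 99.8% of gene reads), TMM scaling, glmQLFit with robust estimation, glmQLFTest, and Benjamini-Hochberg adjustment over all genes tested, with a call at an adjusted p under 0.05. All groups share this spread, with a biological coefficient of variation of 14.5%. Errors after ± are standard errors of log2 fold changes from this fit (n = 2 per group); both library values stand in place of an SD. Normalised CPM uses TMM library sizes. Floors of 3 counts cover counting error alone, because no source mentions molecular identifiers. Positions and exon lengths are those of GENCODE 29 (GRCh38), and promoters those of RefSeq. Alternatives included DESeq2 1.42.0 and limma 3.58.1 (voom). The steps were tested on simulated counts with 200 changed genes and 1 spread for all genes. They found 10.45% to 22.39% of 1.5-fold changes, 59.7% to 61.19% of 2-fold changes and 87.88% to 95.45% of 4-fold changes. False calls were 0.9174% to 6.087% of the calls. Most changes of 1.5-fold would thus be missed at that spread.

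Same-numbered libraries did not deviate together (correlations of 0.023, 0.010 and -0.019), and the labels do not pair them. The members and lists were chosen with earlier results of these data known. Named in full were members called in at least 1 comparison, PTBP1, PTBP2, QKI, MBNL1, HNRNPA1 and HNRNPC, and of the other regulators up to 4 per comparison with the smallest adjusted p and a mean log2 CPM of at least 1. A gene chosen by this rule is not reported here.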

Additional observations from a re-analysis of the deposited data

How the results depend on the processing

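Counts of calls moved with the spread estimate and the libraries used. In oeSRPK1 against NT (3036 genes, 4 members), limma-voom with a spread per group gave 6287 and 15, a fit of only the 4 libraries compared 6331 and 18, an adjusted p under 0.01 gave 988 and 1, and leaving out 1 library gave 293 to 6415 genes and 0 to 16 members. In shSRPK1 against NT (1352 genes, 3 members), no filter gave 2616 and 7, the 4 libraries 129 and 0 (8 members at an unadjusted p under 0.05), 0.01 gave 181 and 0, a stricter filter 5 members, DESeq2 gave 5 and limma-voom 6, and leaving out 1 library gave 29 to 4595 genes and 0 to 14 members. In oeSRPK1 against shSRPK1 (3361 genes, 8 members), the 4 libraries gave 1505 and 1, 0.01 gave 970 and 1, and leaving out 1 library gave 144 to 6152 genes and 0 to 20 members. In the count of 0 under 0.01 in shSRPK1 against NT, 14 members had an unadjusted p under 0.05. The fewest genes were called without oeSRPK1 1 or NT 1 and the most without shSRPK1 2. QKI in shSRPK1 against NT was -0.35 without shSRPK1 2 and 0.69 without shSRPK1 1. No count over all genes stands beside the member counts of the stricter filter, DESeq2 and limma-voom. The same holds for the 8 members at an unadjusted p under 0.05. These counts therefore show nothing particular to the members. The cause of these shifts was not tested.

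With the replicate number as a block, oeSRPK1 against NT, shSRPK1 against NT and oeSRPK1 against shSRPK1 gave 2639, 1006 and 2846 genes and 4, 1 and 6 members; the numbers do not pair the samples. For the 78 other regulators, the 8 calls in oeSRPK1 against NT became 15 with no filter, 21 with a spread per group, 23 with the 4 libraries, 1 under 0.01 and 0 to 26 with a library left out; the 5 in shSRPK1 against NT became 8, 2, 0, 0 and 0 to 24, and 3 with the block; the 19 in oeSRPK1 against shSRPK1 became 7 with the 4 libraries, 5 under 0.01 and 0 to 31. Calls over all genes moved the same way with the 4 libraries in each comparison. They also rose with a spread per group in oeSRPK1 against NT. These shifts of the list were thus not particular to it. With only the 4 libraries compared, HNRNPDL (0.121), PTBP2 (0.0855) and EWSR1 (0.0985) did not pass in shSRPK1 against NT. TIAL1 alone passed in oeSRPK1 against shSRPK1. Of 509 alternatives over 30 results, 400 kept direction and side of the threshold, and 0 of the 15 calls turned direction. Ratios between relatives do not change with the scaling of a library. Where a lone library remained in a group, it was assumed to vary like the others. Depth limits CELF2 most, with 161 reads in all.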

Other observations

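Relatives of these genes that are best known from a single tissue were in part at or near the floor of 3 counts, and others passed the filter on low counts. RBFOX1, the family member of neurons and muscle, had 9 and 8 reads in oeSRPK1 (0.405 and 2.07 CPM), 1 and 0 in shSRPK1, and 0 and 0 in NT, beside muscle sums of 242.7 and 2906 CPM in oeSRPK1, 1.43 and 13.8 in shSRPK1, and 0.680 and 1.20 in NT. The part of the muscle reads in this was not tested; RBFOX1 had the higher level in oeSRPK1 2 and RBFOX2 in oeSRPK1 1. Of the regulators best known from neurons, RBFOX3, NOVA1, ELAVL3, ELAVL4 and SRRM4 had 0 to 2 reads in each library, while SRRM3 had 21 to 125 reads (5.16 to 7.17 CPM), ELAVL2 13 to 46 and NOVA2 1 to 22. KHDRBS2, RALYL, CELF4 and CELF6 had 0 in all 6. ESRP1 and ESRP2, the epithelial regulators, had at most 11 reads in a library. KHDRBS3, a relative of KHDRBS1 chosen here after its values were seen, had 63 and 14 reads in oeSRPK1 (2.83 and 3.62 CPM), 7 and 9 in shSRPK1 (0.529 and 0.861 CPM), and 10 and 12 in NT (0.971 and 0.847 CPM). Its log2 fold change was 1.77 ± 0.38 in oeSRPK1 against NT (edgeR adjusted p = 0.0170), and without NT 1, NT 2, oeSRPK1 1 or oeSRPK1 2 the adjusted p was 0.126, 0.155, 0.135 and 0.0727.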
